A study of Homo sapiens with 6 samples.

Results

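The expression of 10 marker genes of intestinal stem cells and lineages was followed in the human line HCT116, which comes from a colorectal carcinoma. The genes were chosen by name as markers of stem cells, of epithelial identity or of differentiation: CD44, PROM1, BMI1, EPHB2, ALCAM, SOX9, KLF5, KLF4, CDX2 and EPCAM. The choice was made with earlier results of these data known. All 10 were found among the 26255 gene symbols measured, and all 10 had a mean FPKM (a read number scaled to the length of the transcript and the size of the library) of at least 1 over the libraries, as did 12203 genes in all. The study asked what silencing of the long noncoding RNA LINC01534 does to colorectal cancer cells, and 6 RNA-seq libraries of HCT116 cells were examined in 3 groups of 2, which were parent cells, cells given the small interfering RNA siLINC01534-1 and cells given siLINC01534-2. No source used here describes the parent cells as transfected, and a negative control siRNA was not analysed here, so an effect of transfection and an effect of the siRNA cannot be told apart. The 2 libraries of a group are labelled as replicates without saying whether they came from separate cultures, so the p-values measure the spread between these libraries only.

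The intestinal epithelium renews itself from stem cells at the crypt base, which divide under Wnt signalling, and their daughters stop dividing and differentiate as they move towards the surface. CD44, EPHB2 and SOX9 are known as Wnt-responsive genes of the crypt base, PROM1 (CD133) and ALCAM (CD166) have served as surface markers of colorectal cancer stem cells, and BMI1 has served as a marker of a slowly dividing stem cell pool. CDX2 is the homeobox factor that keeps intestinal identity, EPCAM is an adhesion molecule of epithelial cells, and the zinc finger factors KLF5 and KLF4 are known from the dividing crypt cells and from the differentiated surface cells, respectively.

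LINC01534 itself was listed at 0.285 and 0.571 FPKM in parent cells, at 0 and 0.283 with siLINC01534-1, and at 0.660 and 0.551 with siLINC01534-2. The mean was lower than in parent cells with siLINC01534-1 and not with siLINC01534-2. Levels this low are too near 0 to check the labels, and the group names follow the labels. The study itself reported by PCR that each siRNA lowered LINC01534 in HCT116 cells against a negative control siRNA. The FPKM files hold no read counts, and the smallest steps between values gave an estimated depth of 8680000 to 10400000 reads per library. At that depth the members were covered by about 150 (KLF4, lowest library) to about 7400 reads (CD44, highest library). The epithelial keratins KRT8 and KRT18 stood at 1340 to 1730 and 852 to 998 FPKM. Of 16 markers of fibroblasts, endothelial and blood cells, 14 were under a mean FPKM of 1, with 0.26 as their highest value in any library, and 5 of these, the fibroblast genes DCN, LUM and PDGFRA among them, were listed at 0 in all 6 libraries. The other two were COL1A1 at 3.02 to 5.79 FPKM and CD68 at 2.88 to 6.18 FPKM. The summed level of the 16 was 6.14 to 7.36 FPKM in parent cells, 9.44 to 9.70 with siLINC01534-1 and 10.2 to 10.9 with siLINC01534-2.

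KLF4 rose with both siRNAs, to 2.73 times its parent level, and was the only member past a ratio of 2. KLF5 rose to 1.23 times and SOX9 fell to 0.736 times its parent level over both siRNAs. In a bulk sample, fewer cells with an RNA and less of it per cell cannot be told apart. ALCAM fell with siLINC01534-1 only, and its response differed between the siRNAs. The levels of CD44, PROM1, BMI1, CDX2, EPCAM and EPHB2 did not pass the threshold in any of the 4 comparisons, which were fitted without a replicate block. With the mean of both siRNAs against parent cells, 2 members were higher and 2 lower at an adjusted p under 0.05 in limma, where 17.1% of the 12203 tested genes were higher and 20.1% lower. The members' median absolute log2 difference was 0.232, beside 0.162 over all genes tested. By siRNA it was 0.199 beside 0.224 with siLINC01534-1 and 0.165 beside 0.143 with siLINC01534-2. In the mean of both siRNAs the share of members called was near that of all genes in each direction. The count over all genes in that mean, 4541, was 2447 without parent replicate 1 and 2219 without parent replicate 2, where 3 and 4 members were called. With the 4 siLINC01534 libraries as 1 group, 361 genes and 2 members (KLF4 and SOX9) were called.

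**Figure D1:**
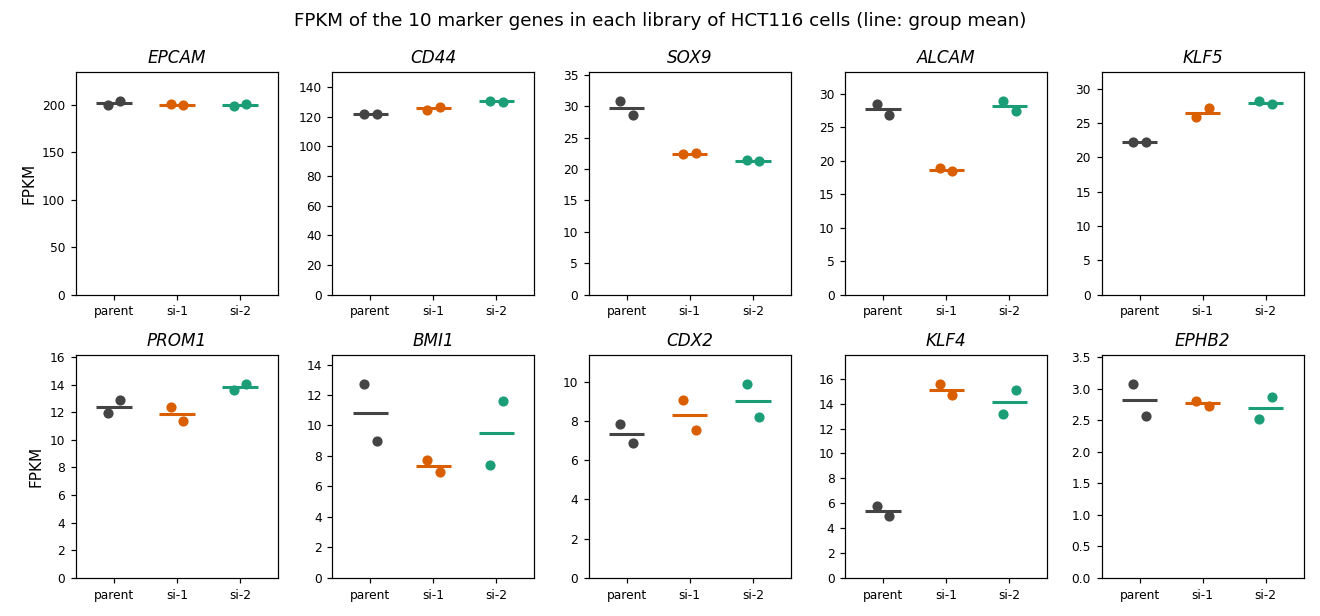
FPKM (vertical axes, linear from 0) of the 10 marker genes in parent cells and in cells given siLINC01534-1 (si-1) or siLINC01534-2 (si-2), with 1 point per library and a line at the mean of the 2 libraries of a group. The 4 points of KLF4 with an siRNA lie at 13.2 to 15.6 FPKM above parent points at 4.94 and 5.76, whereas those of EPCAM lie within 198.8 to 201.5 beside parent points at 199.9 and 204.4.

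The order of the members by mean FPKM in parent cells was EPCAM (202 ± 3.16), CD44 (122 ± 0.374), SOX9 (29.7 ± 1.57), ALCAM (27.7 ± 1.22), KLF5 (22.2 ± 0.0296), PROM1 (12.4 ± 0.653), BMI1 (10.8 ± 2.63), CDX2 (7.36 ± 0.67), KLF4 (5.35 ± 0.579) and EPHB2 (2.82 ± 0.356), each as mean ± SD with n = 2. PROM1 and BMI1 overlapped in their parent libraries, and the other neighbours in this order did not. EPCAM was above 96.3% of the tested genes in parent cells, CD44 above 93.6%, PROM1 above 50.9%, KLF4 above 28% and EPHB2 above 15.4%. With either siRNA KLF4 moved from the ninth to the sixth place of this order, and EPCAM, CD44 and EPHB2 kept theirs.

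KLF4 is a transcription factor of post-mitotic epithelial cells that restrains the cell cycle, and it lies on GRCh37 chromosome 9 (110247133 to 110252763, minus strand). Its level was 5.76 and 4.94 FPKM in the parent libraries, 15.6 and 14.7 with siLINC01534-1, and 13.2 and 15.1 with siLINC01534-2. Every library with an siRNA lay far above both parent libraries, and the libraries of the siRNAs overlapped each other. The log2 difference of FPKM + 1 was 1.35 for siLINC01534-1 (SE 0.0942, adjusted p = 0.00033, limma) and 1.25 for siLINC01534-2 (SE 0.0942, adjusted p = 0.0017). The difference between the siRNAs, given throughout as siLINC01534-1 minus siLINC01534-2, was 0.095 on the same scale, with a 95% confidence interval from -0.14 to 0.33 and an adjusted p of 0.45. Of all tested genes, 2.09% had a ratio of means above 2 over both siRNAs.

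KLF5, the relative of KLF4 that favours proliferation in the crypt, lies on chromosome 13 (73629114 to 73651679, plus strand). It stood at 22.2 FPKM in both parent libraries, at 25.9 and 27.2 with siLINC01534-1 and at 28.2 and 27.7 with siLINC01534-2. Its 4 siLINC01534 libraries were all above the parent libraries, and the libraries of the siRNAs did not overlap each other. The ratio of means was 1.19 for siLINC01534-1 (log2 difference 0.25, SE 0.0420, adjusted p = 0.0063) and 1.26 for siLINC01534-2 (log2 difference 0.32, SE 0.0420, adjusted p = 0.0072). The siRNAs differed by -0.075 (95% confidence interval -0.18 to 0.030, adjusted p = 0.21). The rise with siLINC01534-2 missed the threshold when either parent library was left out, with an adjusted p of 0.050 without replicate 1 and of 0.052 without replicate 2. The rise over both siRNAs (0.28, adjusted p = 0.0035) missed it with the 4 siLINC01534 libraries as 1 group (adjusted p = 0.073).

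The RefSeq promoter table (GRCh38.p14, 250 bases before to 50 after each start) held entries for 8 of the 10 members. The GC box, GGGCGG or its complement CCGCCC, is the motif that SP factors and many KLF proteins bind, and it was sought on both strands in each 300-base window. Several members have more than 1 start (those of EPHB2 give nearly the same window), so the windows are not separate genes. In all, 10 of the 14 windows held at least 1 box, beside 45.0% of all 35116 promoter windows. By gene, 7 of the 8 members held a box in at least 1 window, and a share by gene was not computed for all promoters. The CCAAT box (CCAAT or ATTGG, which shares no match with the GC box) was in 3 of the 14 windows, beside 34.6% of all. KLF4 and KLF5 are shown because both rose with both siRNAs. Their boxes, in capitals, are given in the 250 bases before the start, which is chr9:107489770-107490019 on the minus strand for KLF4 and chr13:73058755-73059004 on the plus strand for the downstream start of KLF5.
KLF4 promoter: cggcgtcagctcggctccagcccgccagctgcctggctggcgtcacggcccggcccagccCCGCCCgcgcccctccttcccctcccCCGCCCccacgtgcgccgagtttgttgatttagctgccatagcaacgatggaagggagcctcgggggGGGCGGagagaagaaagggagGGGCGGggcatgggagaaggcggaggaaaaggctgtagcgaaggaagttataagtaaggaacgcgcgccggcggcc
KLF5 promoter: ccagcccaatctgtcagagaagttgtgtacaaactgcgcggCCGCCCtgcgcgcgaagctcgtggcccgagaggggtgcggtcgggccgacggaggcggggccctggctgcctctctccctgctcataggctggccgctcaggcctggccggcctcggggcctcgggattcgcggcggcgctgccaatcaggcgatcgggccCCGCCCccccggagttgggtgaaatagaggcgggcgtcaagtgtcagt
The KLF4 window held 4 boxes at 69.0% G and C, and the KLF5 window 2 boxes at 71.3%, beside a median of 58.7% over all promoters. The upstream KLF5 start had no box in its window and 40.7% G and C. CDX2, the member without a box, had 50.3%. Over the 14 windows G and C ran from 40.7% to 91.0%, the latter at a BMI1 start. The share of windows with a box was not compared at equal G and C. These matches describe letters in the windows, and binding was not measured.

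SOX9, a transcription factor of crypt base and Paneth cells, lies on chromosome 17 (70117161 to 70122557, plus strand). The parent libraries had 30.9 and 28.6 FPKM, those with siLINC01534-1 22.3 and 22.6, and those with siLINC01534-2 21.5 and 21.2. All 4 siLINC01534 libraries were below both parent libraries, and the values within each siRNA were close to each other. The ratio of means was 0.755 for siLINC01534-1 (log2 difference -0.39, SE 0.0487, adjusted p = 0.0021) and 0.717 for siLINC01534-2 (log2 difference -0.46, SE 0.0487, adjusted p = 0.0041). The siRNAs differed by 0.071 (95% confidence interval -0.050 to 0.19, adjusted p = 0.29).

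ALCAM, an adhesion molecule of the immunoglobulin superfamily, lies on chromosome 3 (105085753 to 105295744, plus strand). It was measured at 28.5 and 26.8 FPKM in parent cells, 18.95 and 18.4 with siLINC01534-1, and 28.96 and 27.5 with siLINC01534-2. Both siLINC01534-1 libraries were below the other four, and the siLINC01534-2 libraries overlapped the parent libraries. The ratio of means was 0.675 with siLINC01534-1 (log2 difference -0.54, SE 0.0513, adjusted p = 0.00085) and 1.02 with siLINC01534-2 (log2 difference 0.028, 95% confidence interval -0.10 to 0.16, adjusted p = 0.73). The difference between the siRNAs was itself past the threshold, at -0.57 (SE 0.0513, 95% confidence interval -0.70 to -0.44, adjusted p = 0.00093). ALCAM also counted among the genes lower with the mean of both siRNAs (-0.26, adjusted p = 0.0087), a mean that rests on siLINC01534-1, and it missed that threshold without parent replicate 1 (adjusted p = 0.062).

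CD44, the hyaluronan receptor, lies on chromosome 11 (35160429 to 35253949, plus strand). It was at 121.6 and 122.1 FPKM in parent cells, 124.5 and 126.7 with siLINC01534-1, and 130.7 and 130.1 with siLINC01534-2. The 4 siLINC01534 libraries were all above the parent libraries, by little. The ratio was 1.03 for siLINC01534-1 (adjusted p = 0.28) and 1.07 for siLINC01534-2 (adjusted p = 0.071), and neither passed the threshold. The annotation lists 38 transcripts of CD44 and the files hold 1 value for the gene, so the variant CD44v9, which the study assayed by PCR, could not be read from it. By PCR in HCT116 cells the study reported lower DCLK1, LGR5, CD133 (PROM1), BMI1 and CD44v9, and higher CDX2, after LINC01534 was silenced. Against parent cells here, PROM1, BMI1 and CDX2 were not called without a replicate block, and DCLK1 and LGR5 were under the filter. The study names a negative control siRNA for its transfections, whereas the values here are set beside parent cells.

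Over the 4 siLINC01534 libraries, 3 members (CD44, KLF4 and KLF5) lay above both parent libraries in every library, where 19% of all tested genes did so, and 1 (SOX9) lay below, where 19.3% did. The remaining 6 overlapped the parent range. An exact permutation test of 4 against 2 libraries has 15 splits and cannot go below a two-sided p of 0.0667, the value that KLF4, KLF5 and SOX9 reached, and CD44 had 0.133.

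PROM1, a pentaspan membrane glycoprotein, lies on chromosome 4 (15964699 to 16086001, minus strand). Its level was 11.96 and 12.9 FPKM in parent cells, 12.4 and 11.4 with siLINC01534-1, and 13.6 and 14.0 with siLINC01534-2. The siLINC01534-1 libraries overlapped the parent libraries, and the siLINC01534-2 libraries were above both. Against parent cells the log2 differences were -0.060 (adjusted p = 0.48) and 0.14 (adjusted p = 0.17). Between the siRNAs it was -0.20 (95% confidence interval -0.36 to -0.043, adjusted p = 0.051), at the edge of the threshold.

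CDX2 lies on chromosome 13 (28535055 to 28543452, minus strand). It stood at 7.83 and 6.89 FPKM in parent cells, 9.06 and 7.56 with siLINC01534-1, and 9.89 and 8.20 with siLINC01534-2. The siLINC01534-1 libraries overlapped the parent libraries and the siLINC01534-2 libraries were above them. The ratios were 1.13 (log2 difference 0.15, 95% confidence interval -0.15 to 0.46, adjusted p = 0.35) and 1.23 (log2 difference 0.26, 95% confidence interval -0.044 to 0.57, adjusted p = 0.18). The intervals include no difference and also rises larger than that of KLF5. In each group replicate 1 was above replicate 2, and the fit with a replicate block is given in the last section.

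BMI1, a subunit of Polycomb repressive complex 1, lies on chromosome 10 (22610028 to 22620413, plus strand). Its level was 12.7 and 8.98 FPKM in parent cells, 7.73 and 6.96 with siLINC01534-1, and 7.38 and 11.6 with siLINC01534-2. The siLINC01534-2 libraries overlapped the parent libraries and lay far apart from each other, and the siLINC01534-1 libraries were below both. The log2 differences were -0.49 (95% confidence interval -1.07 to 0.091, adjusted p = 0.14) and -0.19 (95% confidence interval -0.77 to 0.39, adjusted p = 0.60), the widest intervals of the 10 members.

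The value of BMI1 is uncertain because the files list the overlapping read-through gene COMMD3-BMI1 (22605317 to 22618471) as a symbol of its own, and reads in the shared exons can go to either. COMMD3-BMI1 was at 9.06 and 10.5 FPKM in parent cells, 11.2 and 11.3 with siLINC01534-1, and 17.2 and 11.2 with siLINC01534-2. The share of the sum that was listed under BMI1 ran from 30.1% to 58.4% over the 6 libraries, and within siLINC01534-2 it was 30.1% in one library and 51.0% in the other. The summed FPKM, an alternative chosen after the values were seen, was 20.6 ± 1.60 in parent cells, 18.6 ± 0.470 with siLINC01534-1 and 23.7 ± 1.29 with siLINC01534-2 (SD, n = 2). On the log2 scale the sum differed from parent cells by -0.14 (adjusted p = 0.15) and 0.19 (adjusted p = 0.11). Between the siRNAs it differed by -0.33 (SE 0.0688, adjusted p = 0.014), where BMI1 alone did not pass (-0.30, adjusted p = 0.34).

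**Figure D2:**
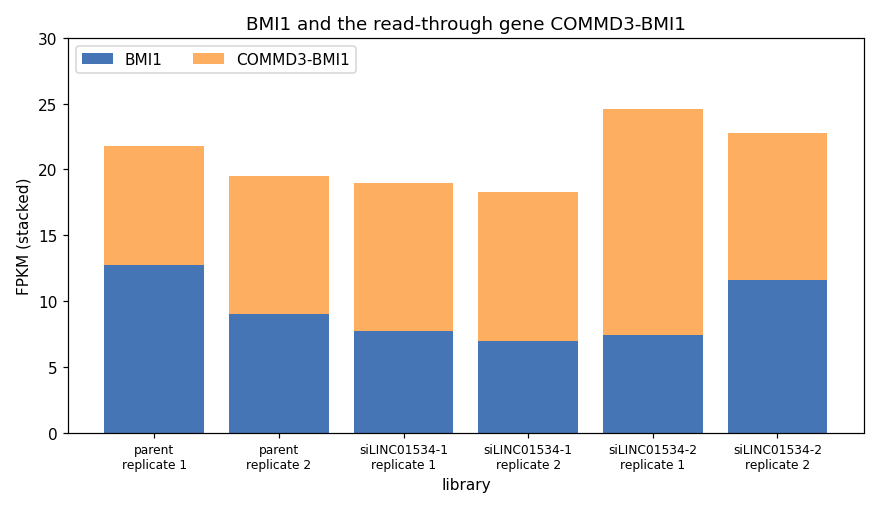
Stacked FPKM (vertical axis, linear from 0) listed under BMI1 and under the read-through gene COMMD3-BMI1 in each of the 6 libraries. The lower part, BMI1, varies from 6.96 to 12.7 FPKM, and its share of the bar is smallest, at 30.1%, in siLINC01534-2 replicate 1.

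EPCAM lies on chromosome 2 (47572297 to 47614740, plus strand). It had 199.9 and 204.4 FPKM in parent cells, 200.8 and 199.7 with siLINC01534-1, and 198.8 and 201.5 with siLINC01534-2. The 3 groups overlapped. The log2 difference of both siRNAs was -0.014, with a 95% confidence interval from -0.079 to 0.052 and an adjusted p of 0.71.

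EPHB2, the receptor tyrosine kinase that positions cells along the crypt, lies on chromosome 1 (23037332 to 23247993, plus strand). Its level was 3.07 and 2.57 FPKM in parent cells, 2.81 and 2.73 with siLINC01534-1, and 2.52 and 2.87 with siLINC01534-2. The groups overlapped. The log2 difference of both siRNAs was -0.032, with a 95% confidence interval from -0.26 to 0.19 and an adjusted p of 0.81.

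**Figure D3:**
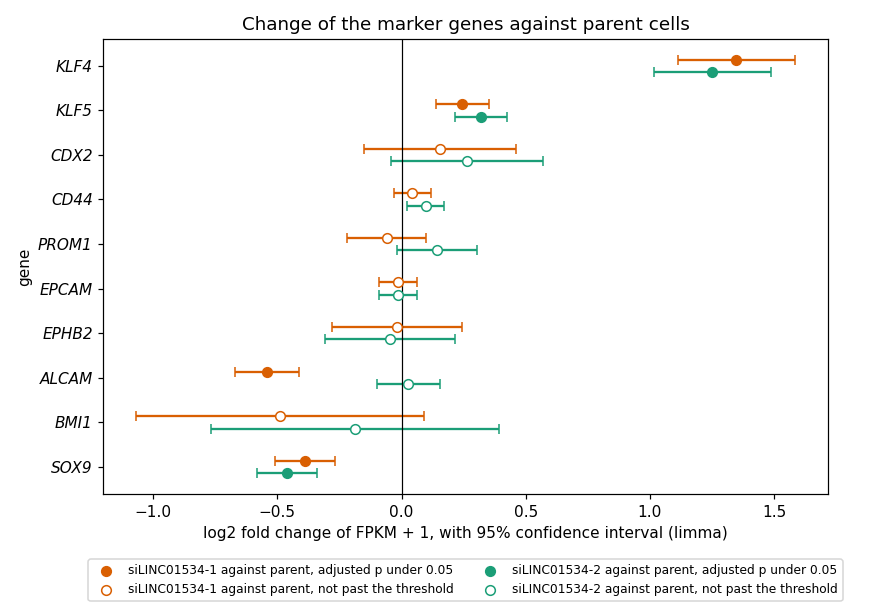
Log2 difference of FPKM + 1 against parent cells (horizontal axis) for each marker gene and siRNA, with the 95% confidence interval from limma; filled points have an adjusted p under 0.05. KLF4 stands apart at 1.35 and 1.25. ALCAM is the only gene whose siLINC01534-1 point (-0.54) and siLINC01534-2 point (0.028) differed past the threshold.

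By siRNA, 2 members were higher and 2 lower with siLINC01534-1, beside 21.8% and 24.5% of all tested genes. With siLINC01534-2, 2 were higher and 1 lower, beside 11.1% and 11.8% of all tested genes. Between the siRNAs, no member was higher with siLINC01534-1 (19.5% of all tested genes were) and 1, ALCAM, was lower (22.3%). The median absolute log2 difference of the members between the siRNAs was 0.0849, beside 0.205 over all genes tested. Both comparisons with parent cells use the same 2 parent libraries, so their values are not independent of each other.

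**Figure D4:**
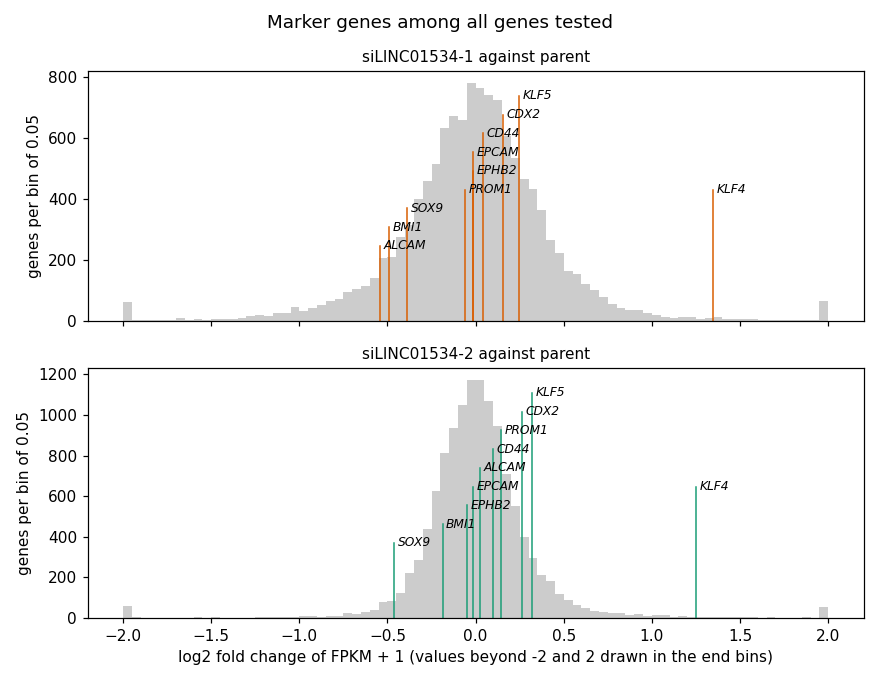
Number of tested genes (vertical axes, in bins of 0.05) by log2 difference of FPKM + 1 against parent cells (horizontal axis), for siLINC01534-1 above and siLINC01534-2 below, with the marker genes as coloured lines whose heights have no meaning. KLF4, at 1.35 and 1.25, lies in the right tail in both panels, and the other 9 lie between -0.54 and 0.32.

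An siRNA can also lower mRNAs whose 3′ UTR pairs with positions 2 to 8 of its antisense strand, and such matches were sought in the canonical transcripts of the members. For siLINC01534-1 the matching 7 bases are GAATAAA, which contain the polyadenylation signal AATAAA, and for siLINC01534-2 they are TTCGAGT. Among 10554 tested genes with a 3′ UTR, 26.5% held the first and 1.88% the second. Of the 10 members, 3 (PROM1, SOX9 and KLF5) held the first and 1 (EPHB2) the second. The 4 sites are shown, with the match in capitals, because they name the members that either siRNA could pair with in this way; the sites are on GRCh37 at chr4:15969857-15969885 (minus strand), chr17:70122266-70122294 (plus), chr13:73651237-73651265 (plus) and chr1:23246398-23246426 (plus).
PROM1: ctgattcatttGAATAAAaaggaacttgg
SOX9: agaagtcagtaGAATAAAatcttaaagca
KLF5: accaaagggcaGAATAAAtaagcaaaatg
EPHB2: attcttgaaatTTCGAGTctcattgttcg
Of these, SOX9 fell with siLINC01534-1 and also with siLINC01534-2, whose match it lacks, while KLF5 rose with both. ALCAM and KLF4 held neither match. Counted back from the end of the 3′ UTR, the match ended at base 18 in PROM1, 275 in SOX9, 423 in KLF5 and 1579 in EPHB2. Other forms of pairing and other transcripts of the members were not searched. Over all tested genes with the siLINC01534-1 match, the median log2 difference with siLINC01534-1 was -0.144, beside 0.032 for genes without it, and 0.012 for the same genes with siLINC01534-2. The part of such pairing in the members' values was not tested.

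The patterns of the members over the 6 libraries were compared with those of all other tested genes by Pearson's r of log2(FPKM + 1), as a description over libraries that form 3 groups of 2. The gene most like KLF4 was SEL1L, an adaptor of endoplasmic reticulum-associated degradation, at r = 0.999. OTUD6B was most like ALCAM (r = 0.999), SPNS2 most like KLF5 (r = 0.998), RMDN1 most like SOX9 (r = 0.998) and the keratin KRT80 most like CD44 (r = 0.997). For the other five the highest r was 0.994 (PARM1 for PROM1), 0.987 (HOOK2 for CDX2), 0.984 (MAFA-AS1 for EPHB2), 0.981 (ERMP1 for BMI1) and 0.974 (LINC00173 for EPCAM). Each r is the highest of a search over all other tested genes with 6 libraries, so values near 1 can arise from the search itself. A link between the genes of a pair was not tested. Within the 10 members the closest pairs were CD44 with KLF5 (r = 0.935) and KLF4 with KLF5 (r = 0.932).

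Among the other genes of the KLF and SP family, the 19 listed included 13 that could be tested. In the mean of both siRNAs 5 were higher (KLF2, KLF3, KLF6, KLF10 and SP2) and 1 lower (SP3). KLF6 and KLF10 were called with each siRNA. The median log2 difference was 0.21 beside -0.0068 over all tested genes. With siLINC01534-1, 5 were higher and 4 lower (KLF11, KLF16, SP3 and SP4), with a median of 0.089. With siLINC01534-2, 5 were higher (KLF11 among them) and none lower, with a median of 0.17. For this and the lists below, 17.1% of all tested genes were higher and 20.1% lower in the mean of both siRNAs. The shares were 21.8% and 24.5% with siLINC01534-1, and 11.1% and 11.8% with siLINC01534-2. KLF10, a TGF-β-inducible factor, was at 34.5 and 31.8 FPKM in parent cells, 63.5 and 66.3 with siLINC01534-1, and 63.2 and 66.1 with siLINC01534-2. It rose with each (log2 difference 0.95 and 0.94), and the difference between the siRNAs was 0.0044 (SE 0.0538, adjusted p = 0.96). KLF6 rose from 16.4 and 14.7 FPKM to 27.1 and 29.7 with siLINC01534-1 and 25.7 and 28.9 with siLINC01534-2 (log2 difference of both 0.80, SE 0.0738, adjusted p = 0.0012). KLF2 stood at 14.6 and 13.8, then 30.5 and 32.9, then 16.3 and 15.9 FPKM. It rose with siLINC01534-1 (log2 difference 1.10, adjusted p = 0.00013) and did not pass with siLINC01534-2 (0.17, adjusted p = 0.082), and the siRNAs differed by 0.93 (adjusted p = 0.00030).

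In the SOX family 5 of 15 genes could be tested, and 2 were lower in the mean of both siRNAs and with siLINC01534-1, and none with siLINC01534-2. SOX13 was at 8.23 and 7.64 FPKM in parent cells, 6.19 and 6.25 with siLINC01534-1, and 7.05 and 7.59 with siLINC01534-2 (log2 difference of both -0.20, adjusted p = 0.039, and of siLINC01534-2 -0.10, adjusted p = 0.31). SOX12 gave -0.19 (adjusted p = 0.049) and -0.11 (adjusted p = 0.26). SOX9 gave -0.42 in the same comparison (adjusted p = 0.0016). Among 17 Eph receptors and ephrins, 10 were tested and 1 was called in the mean of both siRNAs, EPHA2, which rose from 71.4 and 75.7 FPKM to 111 and 114 with siLINC01534-1 and to 93.7 and 97.5 with siLINC01534-2 (log2 difference of both 0.49, adjusted p = 0.00078). All 18 listed genes of Polycomb repressive complex 1, to which BMI1 belongs, were tested. In the mean of both siRNAs 17.1% of all tested genes were higher and 20.1% lower. There, 3 of the 18 were higher (PHC2, PHC3 and RYBP) and 4 lower (PCGF3, CBX2, CBX8 and KDM2B). None of these was called with each siRNA on its own, since PHC3, PCGF3, CBX2 and CBX8 were called with siLINC01534-1 and PHC2, RYBP and KDM2B with siLINC01534-2. The Polyhomeotic subunit PHC2 had a log2 difference of 0.33 (adjusted p = 0.014), PHC3 one of 0.27 (adjusted p = 0.012) and the chromobox subunit CBX2 one of -0.31 (adjusted p = 0.011).

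Of 24 other stem cell markers, 15 could be tested. In the mean of both siRNAs 2 were higher (ITGB1 and ITGA6) and 3 lower (RNF43, ALDH1A3 and CDCA7), of which ITGB1, ALDH1A3 and CDCA7 were called with each siRNA. With siLINC01534-1, 3 were higher and 9 lower, with a median log2 difference of -0.21, where 21.8% and 24.5% of all tested genes were called. With siLINC01534-2, 1 was higher and 2 lower, with a median of 0.013, where 11.1% and 11.8% were called. ALDH1A3, an aldehyde dehydrogenase, was at 253 and 254 FPKM in parent cells, 153 and 154 with siLINC01534-1, and 196 and 191 with siLINC01534-2. It fell with each siRNA (log2 difference -0.72, adjusted p = 8.5e-05, and -0.39, adjusted p = 0.0018), more with siLINC01534-1 (difference -0.34, adjusted p = 0.00092). The integrin subunit ITGB1 was at 151 and 149, 235 and 243, and 178 and 182 FPKM in the same order and rose with each (0.67, adjusted p = 0.00014, and 0.26, adjusted p = 0.0070). CDCA7 fell by 0.34 on the log2 scale in the mean of both siRNAs (adjusted p = 0.0044).

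DCLK1, a kinase marking tuft cells, and LGR5, the R-spondin receptor of crypt base stem cells, were under the filter. DCLK1 was at 0.282 and 0.207 FPKM in parent cells, 0.544 and 0.405 with siLINC01534-1 and 0.304 and 0.197 with siLINC01534-2, which corresponds to about 17 to 40 reads. Both siLINC01534-1 libraries were above the others. In a fit without the filter over 19025 genes its log2 difference was 0.24 with siLINC01534-1 (SE 0.0773, adjusted p = 0.079) and 0.0065 with siLINC01534-2. LGR5 was listed at 0 in 3 of the 6 libraries and at no more than 0.0268 FPKM in the others, about 1 read, so a difference was not detectable at this depth.

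Markers of differentiated cells were mostly too low to follow. Of 26 absorptive cell markers, 2 were tested. DPP4 was higher in the mean of both siRNAs (log2 difference 0.37, adjusted p = 0.0064) and with each. CA2 was lower in that mean and with siLINC01534-1, and was not called with siLINC01534-2 (-0.099, adjusted p = 0.39). Of 23 secretory cell markers, 1 (LYZ) was tested and was not called. Among 21 other intestinal transcription factors 8 were tested, and ELF3 and HES1 were higher in the mean of both siRNAs, HES1 with each and ELF3 with siLINC01534-2. HES1, a Notch target, was at 8.99 and 10.3 FPKM in parent cells, 12.5 and 12.9 with siLINC01534-1, and 15.9 and 18.3 with siLINC01534-2 (log2 difference of both 0.57, adjusted p = 0.0043). It rose more with siLINC01534-2 (difference -0.40, adjusted p = 0.018).

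Around EPCAM, 16 of 17 epithelial adhesion and keratin genes were tested. In the mean of both siRNAs 8 were higher and 2 lower (KRT8 and KRT18), beside 17.1% and 20.1% of all tested genes. With siLINC01534-1, 4 were higher and 4 lower, KRT8 and KRT18 among the latter, and with siLINC01534-2, 9 were higher and none lower. The tight junction gene CLDN4 rose from 72.5 and 69.6 FPKM to 111 in both siLINC01534-1 libraries and to 94.6 and 101 with siLINC01534-2 (0.55, adjusted p = 0.00066), and TJP1 also rose (0.36, adjusted p = 0.0016).

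Around CD44, 14 of 16 genes of its splicing, ligands, cytoskeletal anchors and shedding were tested. The mean of both siRNAs had 17.1% of all tested genes higher and 20.1% lower. In that mean 3 of the 14 were higher (ADAM17, MSN and SLC7A11) and 3 lower (ESRP2, EZR and NF2). Of these, ADAM17, SLC7A11 and EZR were called with each siRNA, MSN and NF2 with siLINC01534-1 and ESRP2 with siLINC01534-2. SLC7A11, the cystine transporter that CD44 variants stabilise, was at 10 and 8.63 FPKM in parent cells, 26.1 and 26 with siLINC01534-1 and 17.6 and 19.8 with siLINC01534-2 (log2 difference of both 1.16, SE 0.0736, adjusted p = 0.00047). The sheddase ADAM17 rose from 16.3 and 15.8 to 29.8 and 29.3 with siLINC01534-1 and to 26.1 and 26.3 FPKM with siLINC01534-2 (0.76, adjusted p = 0.00021). The membrane linker EZR fell from 695 FPKM in both parent libraries to 397 and 402 with siLINC01534-1 and 596 and 573 with siLINC01534-2 (-0.52, adjusted p = 0.00032). ESRP1, a splicing factor that promotes inclusion of CD44 variable exons, is named here after its values were seen. It was at 36.1 and 35.3 FPKM in parent cells, 24.6 and 23.1 with siLINC01534-1, and 45.7 and 50.9 with siLINC01534-2. It thus fell with siLINC01534-1 (-0.56, adjusted p = 0.0015) and rose with siLINC01534-2 (0.42, adjusted p = 0.011), a difference of -0.99 (adjusted p = 0.00036).

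PCR assays of such markers are scaled to a reference gene, and 12 commonly used reference genes were therefore read on the same FPKM scale. In the mean of both siRNAs 2 were higher, 7 were lower and 3 were not called, beside 17.1% of all tested genes higher and 20.1% lower. ACTB fell from 2310 and 2370 FPKM to 1310 and 1280 with siLINC01534-1 and 1850 and 1810 with siLINC01534-2 (log2 difference of both -0.61, adjusted p = 0.00026). GAPDH, which the study used for scaling and which is named here for that reason, was at 4431 and 4604 FPKM in parent cells, 4823 and 4728 with siLINC01534-1 and 4195 and 4100 with siLINC01534-2, with a log2 difference of -0.021 (adjusted p = 0.67) for both siRNAs and 0.20 (adjusted p = 0.012) between them.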

How the data were processed

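RNA of 6 HCT116 libraries was prepared with a strand-marking poly(A) kit and sequenced as single short reads. The authors mapped reads to hg19 (the same assembly as GRCh37) with TopHat2 2.0.13, Bowtie2 2.2.3 and SAMtools 0.1.19, and deposited 1 FPKM value per gene symbol and library, computed with Cuffnorm of Cufflinks 2.2.1. The annotation behind the symbols and the strand setting are not given in the sources used here. FPKM divides by transcript length and by library size, so levels are relative to all other RNAs. The methods name triplicate cultures and the labels 2 libraries per group, and the extraction kit also differs between them.

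Groups came from the labels. The deposited FPKM were taken to log2(FPKM + 1). The 12203 genes whose mean FPKM reached 1 were fitted with limma 3.58.1 in R 4.3.3 (a mean per group, a shared spread, eBayes with a trend). The 4 contrasts were tested two-sided, with Benjamini-Hochberg adjustment over all tested genes and a threshold of 0.05. Ratios are of mean FPKM without a pseudocount. The script was tested on simulated data. The alternatives were a pseudocount of 0.1, a minimum of 5, no minimum, another scaling, no trend, a replicate block, the 4 siLINC01534 libraries as 1 group and each library left out.

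Depth was estimated from 323 genes with a single transcript, with quartiles of 9.63e+06 and 1.02e+07 reads for parent replicate 1. Positions, transcripts and 3′ UTRs came from GENCODE on GRCh37, and promoters from RefSeq on GRCh38.p14; no coordinate was converted. Python 3.11.15, pandas 2.3.3, numpy 2.4.6 and matplotlib 3.10.9 were used.

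The members and the 12 companion gene lists were chosen with earlier results of these data known. The genes named were all members, in each list up to 3 genes with the largest absolute log2 difference of both siRNAs that passed the threshold with all 4 siLINC01534 libraries on one side of parent, DCLK1, LGR5 and LINC01534, and the tested gene most correlated with each member. Other genes are named only as parts of counts or where said. Some genes that the rule names are not reported here.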

Additional observations from a re-analysis of the deposited data

Results flagged for a closer look

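ALCAM was the member whose response differed between the siRNAs by a test of the difference itself. On the log2 scale of FPKM + 1, siLINC01534-1 minus siLINC01534-2 was -0.5697 (SE 0.0513, limma adjusted p = 0.00093), with group means of 18.7 ± 0.376 and 28.2 ± 1.04 FPKM (SD, n = 2) beside 27.7 ± 1.22 in parent cells. Of all tested genes, 22.3% were lower and 19.5% higher with siLINC01534-1 than with siLINC01534-2 at the same threshold. The difference was past the threshold with each library left out in turn, at -0.53 to -0.61. LINC01534 itself was at 0 and 0.283 FPKM with siLINC01534-1 and at 0.660 and 0.551 with siLINC01534-2, and its part in the difference was not tested.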

How the results depend on the processing

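KLF4, KLF5 and SOX9 kept their direction in every comparison with parent cells under all alternatives run. Over the single genes, 459 values kept direction and side of the threshold, 5 lost and 5 gained a call, and 21 changed sign. Taking the 4 siLINC01534 libraries as 1 group left 2 members and 361 genes called for both siRNAs, where 4 and 4541 were called otherwise (ALCAM adjusted p = 0.51, KLF5 adjusted p = 0.073), since the spread then holds the difference between siRNAs. Between the siRNAs 2 members were called with a pseudocount of 0.1, a minimum mean FPKM of 5 or median-of-ratios scaling, as PROM1 joined (adjusted p = 0.048, 0.041 and 0.048). That scaling also turned EPCAM between the siRNAs to -0.0035. Summing BMI1 with COMMD3-BMI1, chosen after seeing the data, turned the BMI1 difference to 0.024 for both siRNAs and to 0.19 for siLINC01534-2, and made that between the siRNAs -0.33.

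With each library left out in turn, all genes called ranged from 2219 to 3689 for both siRNAs, 3907 to 5241 for siLINC01534-1, 857 to 1931 for siLINC01534-2 and 3196 to 4515 between the siRNAs, and members called from 3 to 4, 4 to 4, 2 to 3 and 1 to 1. The sign changed, with none of these past the threshold, for PROM1 with both siRNAs (-0.0084 to 0.091), CDX2 between the siRNAs (-0.23 to 0.012), ALCAM with siLINC01534-2 (-0.016 to 0.071) and BMI1 with siLINC01534-2 (-0.48 to 0.11). It also changed for EPCAM with both siRNAs (-0.030 to 0.0021), siLINC01534-1 (-0.029 to 0.0026), siLINC01534-2 (-0.030 to 0.0017) and between them (-0.0088 to 0.011), and for EPHB2 in the same comparisons (-0.13 to 0.063, -0.11 to 0.078, -0.14 to 0.047 and -0.037 to 0.10).

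Deviations of same-numbered libraries from their group means correlated weakly over genes, at 0.11, 0.027 and -0.046, and the main fit used no block. With 2 libraries per group this does not settle whether same-numbered libraries share a batch. With the replicate block 5 members were called for both siRNAs, as CDX2 joined (0.21, adjusted p = 0.041), and 4, 3 and 1 in the other comparisons, with 3892, 5114, 1993 and 4438 genes called in all. With 2 libraries per group, DCLK1, LGR5 and LINC01534 were too low for firm values, and isoforms were not seen.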
